A study of Sus scrofa with 6 samples.

Results

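The genes described here are matrix metalloproteinases (MMPs) and tissue inhibitors of metalloproteinases (TIMPs) of the pig heart, taken from a list of 10: MMP2, MMP9, MMP14, MMP15, MMP16, MMP19, TIMP1, TIMP2, TIMP3 and TIMP4. They were picked by gene symbol from a table of 13288 genes, which gave 9 of the 10, that is 6 proteases and 3 inhibitors. TIMP2 was taken instead from an unnamed gene, ENSSSCG00000017164, whose interval (chromosome 12, 3254493 to 3300835) covers 100% of the RefSeq position of TIMP2 on Sscrofa11.1. It is called TIMP2 (by position) throughout. RefSeq also places CEP295NL inside that interval.

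The samples were ventricular tissue of 6 male Tibetan minipigs. In 3 of them the descending aorta had been constricted (DAC), which loads the left ventricle with pressure. The other 3 had a sham operation, in which the chest was opened without a constriction. Tissue was taken 12 weeks after surgery. The sequenced animals are 3 of the 5 randomised to each group, the sources used here give no age, and no transgene was involved. Sham animals are numbered 1 to 3 and DAC animals 4 to 6.

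MMPs are zinc-dependent proteases that cut collagens, laminins, fibronectin and other parts of the extracellular matrix. Most are made as inactive proenzymes, and TIMPs hold the active enzymes by binding to their catalytic site. MMP2 and MMP9 are the gelatinases. MMP14 sits in the cell membrane and, together with TIMP2, activates proMMP2 at the cell surface. In the loaded heart, the balance between these proteases and their inhibitors is studied as one determinant of how collagen accumulates.

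Expression is given in FPKM, the fragments of a gene per unit of its length and scaled to the mapped fragments of the sample, so levels of different genes can be set side by side. Groups were compared with limma's moderated test on log2(FPKM + 1), and a log2 difference on this scale understates the change of a gene with low FPKM. A gene was called at an unadjusted P under 0.05 and its change is described as a rise or a fall on that footing alone, with the Benjamini-Hochberg adjusted P over all 11029 genes tested beside it. At that threshold 939 genes were called, 8.51% of those tested, with 3.25% higher and 5.27% lower in DAC. None had an adjusted P under 0.05 in limma, and the smallest adjusted P was 0.106. The median log2 difference of all genes tested was -0.02. The FPKM of an animal summed to between 281377 and 308771, and mitochondrially encoded genes took 24.01% to 25.3% of it in the sham group, 27.2% in DAC 4, 32.8% in DAC 5 and 27.1% in DAC 6. Read depth is unknown, so precision rests on the spread between animals. All 8 cardiomyocyte markers looked up were listed, with a summed level between 13518 and 16419 FPKM.

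Among the listed genes, TIMP1 and MMP16 rose in the DAC myocardium. Mean FPKM of TIMP1 was 65.5% higher, and that of MMP16 was 57.2% higher. No member fell past the threshold. Thus 2 of the 9 members tested were called higher, against 3.25% of all genes tested, and 0 were called lower, against 5.27%. The members were chosen with earlier results of these data known, so these shares are no test of the list. Neither call had an adjusted P under 0.05. MMP2 lay above the sham group in all DAC animals and TIMP4 lay below it, without passing the threshold.

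**Figure D1:**
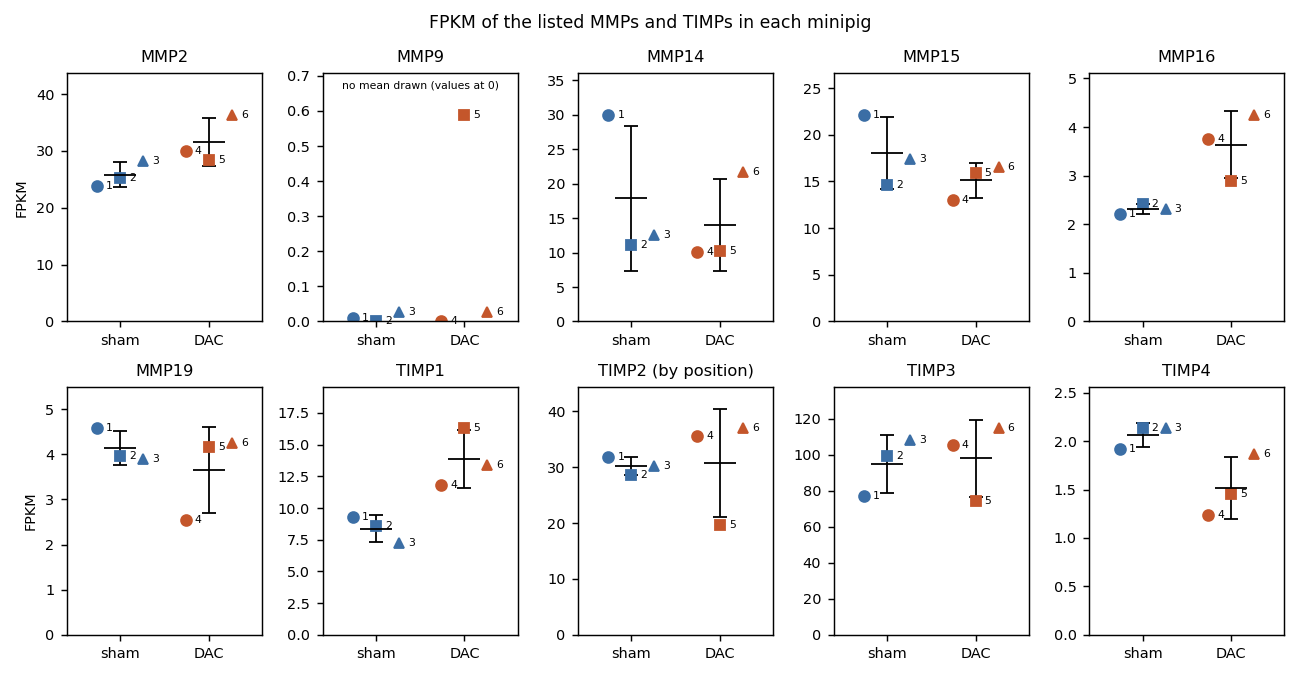
FPKM of each listed gene (vertical axis, from 0) in sham animals 1 to 3 and DAC animals 4 to 6. Points are single animals with their number, horizontal bars the group mean and error bars the SD (n = 3), drawn for all but MMP9, which has values at 0. The DAC animals lie above all sham animals for MMP2, MMP16 and TIMP1 and below them for TIMP4.

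MMP2 (chromosome 6, 30058594 to 30086982) encodes gelatinase A, which degrades denatured collagen and basement membrane collagen. Its FPKM was 23.9, 25.3 and 28.3 in sham animals 1 to 3 and 30.0, 28.4 and 36.4 in DAC animals 4 to 6. Every DAC animal was above every sham animal, although DAC 5 exceeded sham 3 by little. A separation of that kind with DAC above was found in 6.01% of the genes tested. The means were 25.8 ± 2.24 and 31.6 ± 4.22 FPKM (SD, n = 3 each). The log2 difference was 0.28 (95% interval -0.03 to 0.58, limma adjusted P = 0.596, unadjusted P = 0.0682). MMP2 passed the unadjusted threshold when the samples were scaled to the same median (log2 difference 0.30), after quantile normalization (0.33), with mitochondrially encoded genes left out (0.32) and without DAC 5 (0.35). It was 0.17 without DAC 6 and 0.22 without sham 1, in neither case past the threshold.

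MMP9 (chromosome 17, 48175056 to 48188264) encodes gelatinase B, an enzyme stored in neutrophil granules and also made by macrophages. It was listed at 0.00944, 0 and 0.0264 FPKM in sham animals 1 to 3 and at 0, 0.590 and 0.0264 FPKM in DAC animals 4 to 6. Only DAC 5 was above 0.0264 FPKM, and the gene was below the minimum of 1 FPKM in at least 3 animals that testing required. Every gene in the deposited data reached 0.5 FPKM in some animal, which MMP9 did in DAC 5 alone. Of 8 neutrophil markers looked up, CSF3R, the receptor of granulocyte colony-stimulating factor, was the only one with values here. The other markers were absent, either below that level in all animals, DAC 5 included, or without a name. CSF3R was also highest in DAC 5, at 2.15 FPKM, against 0.327 to 0.976 FPKM in the other animals. Whether neutrophils had a part in the MMP9 value was not tested.

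MMP19 (chromosome 5, 21280130 to 21285774) encodes a secreted protease of basement membrane components. It stood at 4.58, 3.96 and 3.89 FPKM in the sham animals and at 2.55, 4.15 and 4.26 FPKM in the DAC animals. DAC 4 was the lowest of the 6 and the groups overlapped. This gave a log2 difference of -0.16 (95% interval -0.57 to 0.24, limma adjusted P = 0.801). Without DAC 4 it was 0.02.

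Of the membrane-type proteases, MMP16 rose in DAC, and MMP14 and MMP15 had lower means there and overlapped between the groups. Whether the 3 genes differed from one another in response was not tested. MMP14 (chromosome 7, 76174500 to 76185923), the activator of proMMP2, was at 30.0, 11.1 and 12.5 FPKM in sham animals 1 to 3. In DAC animals 4 to 6 it was at 10.03, 10.2 and 21.7 FPKM. Sham 1 and DAC 6 stood well above the other 4 animals, so the spread within each group exceeded the difference between them. Its log2 difference of -0.29 had a 95% interval from -1.28 to 0.70 (limma adjusted P = 0.866) and became 0.14 without sham 1. An MMP14 level between 0.413 and 1.63 times that of the sham group on this scale is compatible with the interval.

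MMP15 (chromosome 6, 19890884 to 19918244) encodes a further membrane-type protease that can also activate proMMP2. It was at 22.2, 14.6 and 17.4 FPKM in the sham animals and at 13.0, 15.9 and 16.5 FPKM in the DAC animals. Sham 1 was again the highest. On the log2 scale the difference was -0.23 (95% interval -0.63 to 0.17, limma adjusted P = 0.719), and it was -0.08 without sham 1 and -0.36 without sham 2. Over the 6 animals, log2(FPKM + 1) of MMP14 and MMP15 had a Pearson r of 0.825, a description that includes sham 1 as the highest point of both.

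MMP16 (chromosome 4, 48556967 to 48862986) encodes the third of these membrane-type enzymes. Its FPKM was 2.21, 2.41 and 2.31 in the sham animals, a narrow range with a mean of 2.31 ± 0.103 (SD, n = 3). In DAC animals 4 to 6 it was 3.75, 2.89 and 4.26, with a mean of 3.63 ± 0.688 (SD, n = 3). All DAC animals exceeded all sham animals. MMP16 had a log2 difference of 0.47 ± 0.14 (SE), with a 95% interval from 0.16 to 0.79 (limma unadjusted P = 0.00967, adjusted P = 0.5001). The exact two-sided permutation P was 0.1, the smallest that 3 animals against 3 allow.

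**Figure D2:**
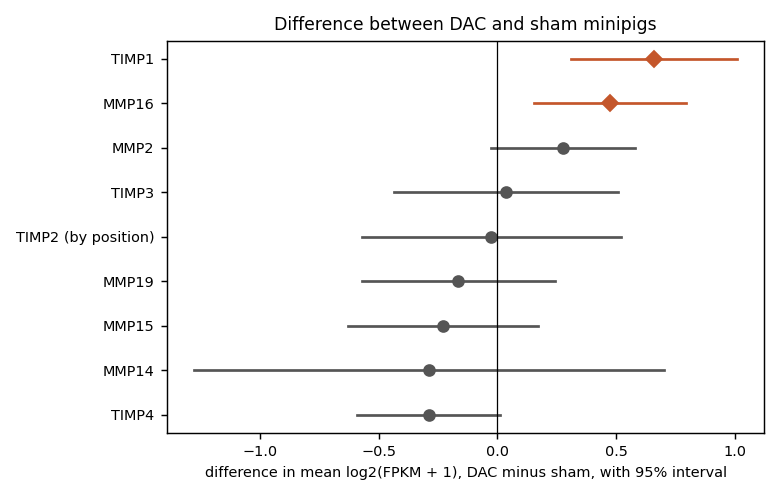
Difference in mean log2(FPKM + 1) between DAC and sham animals (horizontal axis) for the 9 members tested, with 95% intervals from limma. Diamonds mark TIMP1 and MMP16, whose intervals of 0.31 to 1.01 and 0.16 to 0.79 lie above 0, and circles the members that were not called.

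Among the inhibitors, TIMP1 rose in DAC, TIMP4 had lower values, and TIMP2 (by position) and TIMP3 showed no detectable difference. TIMP1 (chromosome X, 42102172 to 42106297) encodes a secreted inhibitor induced by many growth factors and cytokines. Its FPKM was 9.31, 8.58 and 7.22 in sham animals 1 to 3 and 11.8, 16.3 and 13.4 in DAC animals 4 to 6. The lowest DAC animal exceeded the highest sham animal. The means were 8.37 ± 1.06 and 13.9 ± 2.29 FPKM (SD, n = 3 each). TIMP1 had a log2 difference of 0.66 ± 0.15 (SE), with a 95% interval from 0.31 to 1.01 (limma unadjusted P = 0.00291, adjusted P = 0.441). TIMP1 kept its call in every alternative fit tried, each single animal left out included, with log2 differences of 0.54 to 0.76 in the latter.

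Annotated positions of TIMP1 and SYN1, a gene of synaptic vesicles, overlap on opposite strands, and the sources used here do not say whether strand was used in quantification. SYN1 was at 38.4, 39.4 and 35.9 FPKM in the sham animals and at 50.4, 42.3 and 36.9 FPKM in the DAC animals. It overlapped between the groups (log2 difference 0.17, limma adjusted P = 0.725). In every animal SYN1 was above TIMP1, which lay between 7.22 and 16.3 FPKM. Reads of the shared stretch cannot be told apart, and their part in the TIMP1 values was not tested. MMP14 and MMP15 overlap SLC7A7 and CFAP20, which stayed at or below 0.976 and 1.66 FPKM.

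TIMP2 (by position) was at 31.9, 28.6 and 30.1 FPKM in the sham animals and at 35.5, 19.7 and 37.0 FPKM in the DAC animals. The sham values were close together, and DAC 4 and DAC 6 lay above them while DAC 5 lay below. Their means differed by -0.03 on the log2 scale (95% interval -0.57 to 0.52, limma adjusted P = 0.982), and without DAC 5 by 0.26, still not called. TIMP2 serves both as an inhibitor and as the link between MMP14 and proMMP2.

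TIMP3 (chromosome 5, 12185816 to 12242637), which stays bound to the matrix and also inhibits ADAM17, was the most abundant of the listed genes. It was at 77.2, 99.3 and 108 FPKM in the sham animals and at 105, 74.0 and 115 FPKM in the DAC animals. The lowest and the highest animal were both in the DAC group. The log2 difference was 0.04, with a 95% interval from -0.43 to 0.51 (limma adjusted P = 0.971), and its sign turned when sham 1 (-0.10), DAC 4 (-0.03) or DAC 6 (-0.09) was left out. DAC 5, the animal with the lowest TIMP2 (by position) and TIMP3, had the highest TIMP1 and the highest mitochondrial share of FPKM. The part of that share in these levels was not tested.

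TIMP4 (chromosome 13, 68179805 to 68190942), an inhibitor known for its expression in the heart, was the least abundant inhibitor. It was at 1.92, 2.13 and 2.14 FPKM in the sham animals and at 1.23, 1.45 and 1.87 FPKM in the DAC animals. All DAC animals were below all sham animals, as in 8.91% of the genes tested, though DAC 6 was close to sham 1. The means were 2.06 ± 0.125 and 1.52 ± 0.321 FPKM (SD, n = 3 each), 26.4% lower in DAC. The log2 difference was -0.29 (95% interval -0.59 to 0.01, limma adjusted P = 0.593, unadjusted P = 0.0582). Without DAC 6 it was -0.39 and passed the unadjusted threshold. Leaving out any other single animal gave -0.32 (without sham 1) to -0.21 (without DAC 4), in no case past the threshold.

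Ratios, mostly of a protease to an inhibitor, were formed within each animal, where the scaling of the sample cancels. The 26 pairs designed include MMP14 over MMP2 and MMP9 over MMP2, each a protease over a protease. Of the 26, 5 contained MMP9 and were left out because of values at 0, and 21 were compared. The groups did not overlap in 6 pairs. Among single genes, all DAC animals lay above the sham animals in 6.01% and below them in 8.91% of those tested, and no such share was computed over other pairs of genes. In 4 of the 6 separated pairs the ratio was higher in DAC, namely MMP16 over TIMP2 (by position), TIMP3 and TIMP4, and MMP2 over TIMP4. In the other 2 it was lower, namely MMP15 and MMP19 over TIMP1. Each of the 6 had an exact two-sided permutation P of 0.1, the smallest possible here, and an adjusted P of 0.35 over the 21 pairs. Pairs share genes and are not independent of one another.

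The ratio of MMP16 to TIMP4 was 1.15, 1.13 and 1.08 in sham animals 1 to 3 and 3.03, 1.99 and 2.28 in DAC animals 4 to 6. On average it was 2.14 times as high in DAC, as a ratio of geometric means. The ratio of MMP2 to TIMP4 was 12.4, 11.9 and 13.2 in the sham animals and 24.3, 19.6 and 19.5 in the DAC animals, or 1.68 times as high. In both pairs all DAC animals lay above all sham animals. That follows from the single genes, since every DAC animal was above the sham group for MMP16 and MMP2 and below it for TIMP4. The separation of these ratios therefore adds nothing to that of the genes. MMP16 over TIMP3 was 0.0286, 0.0243 and 0.0214 in the sham animals against 0.0355, 0.0391 and 0.0370 in the DAC animals. MMP16 over TIMP2 (by position) went from 0.0768 ± 0.00765 to 0.122 ± 0.0217 (SD, n = 3 each).

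Against TIMP1, the lower ratios in DAC were those of MMP15 and MMP19. MMP15 over TIMP1 was 2.38, 1.70 and 2.42 in the sham animals and 1.10, 0.975 and 1.23 in the DAC animals. MMP19 over TIMP1 was 0.492, 0.461 and 0.538 in the sham animals and 0.216, 0.255 and 0.317 in the DAC animals. Both ratios in DAC stood near 0.5 of their sham value (0.513 and 0.523 times). MMP14 over TIMP1 was 3.22, 1.30 and 1.74 in the sham animals and 0.850, 0.625 and 1.62 in the DAC animals. It overlapped because DAC 6 exceeded sham 2 (exact two-sided permutation P = 0.2, n = 3 each).

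MMP2 over TIMP1, the listed protease with the highest mean FPKM over the inhibitor that rose, was 2.56, 2.95 and 3.92 in the sham animals and 2.54, 1.74 and 2.71 in the DAC animals. DAC 6 exceeded sham 1, and the exact two-sided permutation P was 0.2. MMP16 over TIMP1, the ratio of the pair that rose together, was 0.237 to 0.320 in the sham group and 0.177 to 0.317 in the DAC group. MMP14 over MMP2, the activator over its substrate, was 1.26, 0.440 and 0.443 in the sham animals and 0.334, 0.359 and 0.597 in the DAC animals (exact two-sided permutation P = 0.5, n = 3 each). Sham 1 was the only animal with more MMP14 than MMP2.

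**Figure D3:**
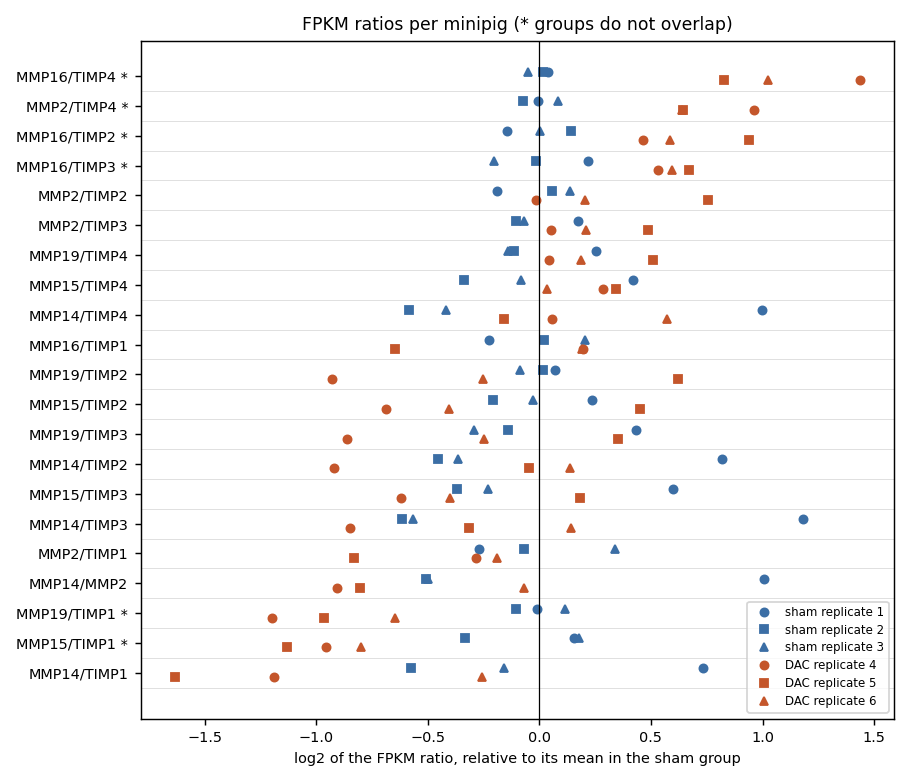
Log2 FPKM ratio of each of the 21 pairs in each animal, relative to the mean of the sham group (horizontal axis, 0 at that mean). Sham animals are blue and DAC animals orange, TIMP2 is taken by position, and an asterisk marks the 6 pairs whose groups do not overlap, 4 with DAC above and 2 with DAC below.

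The summed FPKM of proteases and inhibitors did not separate the groups. The 6 proteases over the 3 inhibitors named in the table gave 0.937, 0.522 and 0.548 in the sham animals and 0.501, 0.677 and 0.639 in the DAC animals. Sham 1 was the highest and DAC 4 the lowest, with the other 4 between them. The log2 difference was -0.10 (exact two-sided permutation P = 0.8, n = 3 each), and -0.07 with TIMP2 (by position) among the inhibitors. With TIMP3 left out of the 3 named inhibitors, which leaves TIMP1 and TIMP4, it was -0.55 (exact two-sided permutation P = 0.2). TIMP2 (by position) was not in that sum. It was -0.29 with MMP2 left out and the 3 named inhibitors kept. Without sham 1 it was 0.17, and without DAC 4 it was 0.03. Summed protease FPKM was 82.8, 57.4 and 64.5 in the sham animals and 59.3, 62.2 and 83.2 in the DAC animals.

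Both sums rested on few genes. TIMP3 made up 64.2% to 73.3% of the 4 inhibitors in every animal. TIMP1 supplied 7.74%, 6.19% and 4.89% of them in the sham animals and 7.67%, 14.6% and 8.03% in the DAC animals. The groups overlapped in this share, since DAC 4 was just under sham 1 (exact two-sided permutation P = 0.2, n = 3 each). The share of TIMP4 was 1.59%, 1.54% and 1.45% in the sham animals and lower in each DAC animal, at 0.802%, 1.30% and 1.12%. Of the protease sum, MMP2 was 28.8% in sham 1 and 43.8% to 50.6% in the other animals. MMP16 was 2.66%, 4.20% and 3.58% of that sum in the sham animals and 6.31%, 4.65% and 5.12% in the DAC animals, without overlap (exact two-sided permutation P = 0.1, the smallest possible).

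**Figure D4:**
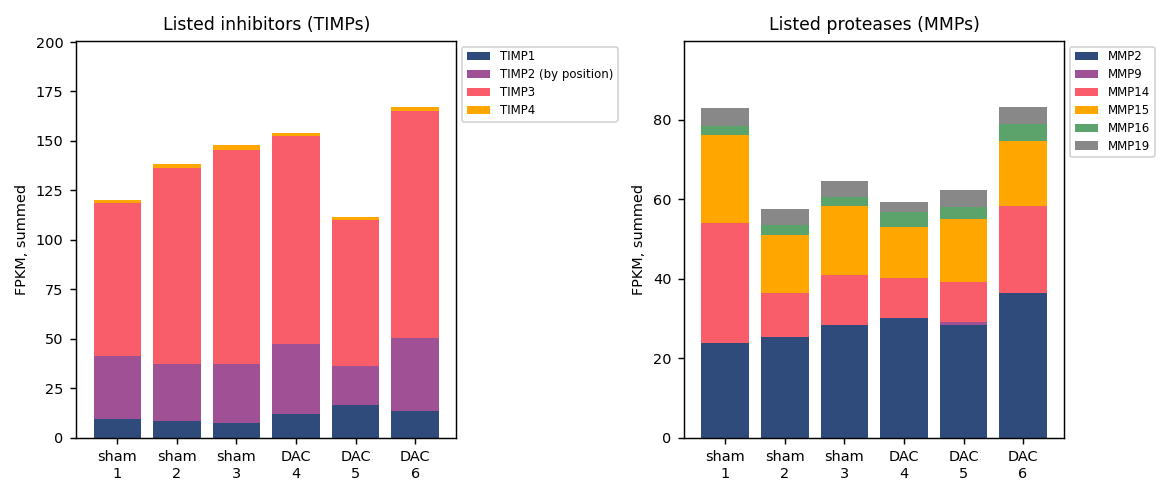
Summed FPKM of the 4 inhibitors (left) and the 6 proteases (right) in each animal, with bars from 0 divided by gene. TIMP3 is the main part of the inhibitor sum in every animal, at 64.2% to 73.3%, and MMP14 is the widest part of the protease bar in sham 1 alone, at 36.2%.

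In mean FPKM over the 6 animals, the order of levels was TIMP3 (96.5), TIMP2 by position (30.5), MMP2 (28.7), MMP15 (16.6), MMP14 (15.9), TIMP1 (11.1), MMP19 (3.90), MMP16 (2.97), TIMP4 (1.79) and MMP9 (0.109). TIMP3 was above the next gene in 6 of 6 animals, as were MMP2, TIMP1, MMP16 and TIMP4 above theirs. MMP15 exceeded MMP14 in 4 animals, all but sham 1 and DAC 6, so these neighbours did not differ beyond their spread. MMP14 exceeded TIMP1 in all 3 sham animals but was below it in DAC 4 and DAC 5, so their order was not the same in both groups. TIMP2 (by position) exceeded MMP2 in 5 animals, all but DAC 5. MMP19 exceeded MMP16 in 5 animals, all but DAC 4, with means of 4.14 and 2.31 FPKM in the sham group and 3.65 and 3.63 FPKM in the DAC group.

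The genes whose log2(FPKM + 1) most resembled MMP2 over the 6 animals were PDK1 (Pearson r 0.987), SEC61G (0.985), RCN1 (0.982), SUN1 (0.979) and NME6 (0.978). For TIMP1 they were S100A11 (0.992), SRXN1 (0.981), MED13L (0.981), ME2 (0.972) and EPSTI1 (0.965). Among the members themselves, MMP2 and MMP16 had an r of 0.895 and MMP2 and TIMP1 an r of 0.507. These are descriptions over 6 animals of both groups, picked from all genes tested, so a difference between the groups enters each of them.

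Of 34 matrix genes looked up, substrates of these enzymes among them, 32 were tested, 9 rose, 0 fell and 23 were not called. Over all genes tested, 3.25% were called higher and 5.27% lower in DAC. The median log2 difference of the list was 0.18 against -0.02 over all genes tested. The 9 were COL1A1, COL1A2, COL3A1 and COL5A2, chains of fibrillar collagens, FN1, which encodes fibronectin, the proteoglycans BGN, LUM and OGN, and POSTN, which encodes periostin, with limma adjusted P between 0.335 and 0.553. OGN had the smallest P, at 8.58, 10.2 and 8.01 FPKM in the sham animals and 18.5, 14.4 and 15.8 FPKM in the DAC animals (log2 difference 0.79, limma adjusted P = 0.335). COL1A2 followed, at 81.3, 68.3 and 70.1 FPKM against 112.6, 108.8 and 109.4 FPKM (0.59, limma adjusted P = 0.337). COL1A1 was at 101.7, 78.5 and 101.8 FPKM in the sham animals against 188.9, 170.4 and 136.9 FPKM in the DAC animals (0.81, limma adjusted P = 0.379). In all 3, which were picked for their small P, the groups did not overlap.

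Of 18 other MMPs looked up, 5 had values and 3 were tested. MMP23B, a membrane-linked protease without the usual propeptide switch, rose, and 0 fell, against 3.25% and 5.27% of all genes tested. It was at 3.61, 4.11 and 4.34 FPKM in the sham animals and at 13.1, 5.48 and 6.26 FPKM in the DAC animals, and the log2 difference was 0.80 ± 0.28 (SE, limma unadjusted P = 0.0246, adjusted P = 0.553). DAC 4 stood far above the other DAC animals, and the log2 difference without it was 0.45. The call was lost when the variance of the gene was estimated on its own and without sham 1 or sham 2. MMP11, which encodes stromelysin 3, was at 20.1 to 39.0 FPKM and overlapped between the groups (log2 difference -0.16, limma adjusted P = 0.875). Its means were 31.6 FPKM in the sham group and 27.3 FPKM in the DAC group, above MMP14 and MMP15. MMP2 had means of 25.8 and 31.6 FPKM, so MMP11 was about as abundant as MMP2. MMP11 is not among the listed proteases and is not part of the protease sums, shares and ratios given above.

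Among 30 activators and surface regulators of MMPs, 24 were tested, 1 rose and 2 fell, with a median log2 difference of 0.08. The shares called over all genes tested were 3.25% higher and 5.27% lower. CD44, a hyaluronan receptor that can hold MMPs at the cell surface, was at 4.46, 5.25 and 4.55 FPKM in the sham animals and at 5.94, 6.77 and 6.56 FPKM in the DAC animals (log2 difference 0.37, limma adjusted P = 0.505). CLDN5, an endothelial tight junction protein, fell from 8.30, 12.3 and 18.8 FPKM to 4.14, 3.78 and 6.88 FPKM (-1.22, limma adjusted P = 0.482). SPOCK2, a proteoglycan of the testican family, fell from 6.58, 16.8 and 14.0 FPKM to 5.70, 4.86 and 2.10 FPKM (-1.35, limma adjusted P = 0.505). All DAC animals were above the sham animals for CD44 and below them for the other 2. FURIN, the convertase that activates membrane-type MMPs, and RECK, a membrane inhibitor of MMPs, were not called, at log2 differences of -0.38 (limma adjusted P = 0.592) and 0.18 (limma adjusted P = 0.693).

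Of 24 ADAM proteases, cathepsins and related genes, 18 were tested, 0 rose and 1 fell, with a median of 0.03. These counts stand beside 3.25% of all genes tested called higher and 5.27% called lower. The one that fell was CTSD, the lysosomal aspartic protease cathepsin D, from 195.3, 197.3 and 200.3 FPKM in the sham animals to 143.2, 116.2 and 138.0 FPKM in the DAC animals (log2 difference -0.58, limma adjusted P = 0.379). ADAM17, the sheddase that TIMP3 inhibits, lay between 5.08 and 5.36 FPKM in all 6 animals (log2 difference 0.04, limma adjusted P = 0.914). Within that range all DAC animals were above all sham animals, as in 6.01% of the genes tested.

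Among 33 transcription factors, cytokines and related signaling genes looked up, 24 were tested, 1 rose and 3 fell, with a median of 0.01. Of all genes tested, 3.25% were called higher and 5.27% lower. FOSL2, a partner of the AP-1 complex, fell from 40.9, 38.7 and 48.6 FPKM to 28.3, 23.1 and 29.0 FPKM (log2 difference -0.65, limma adjusted P = 0.383). ETS2 fell from 39.6, 36.8 and 32.3 FPKM to 21.5, 27.4 and 22.7 FPKM (-0.59, limma adjusted P = 0.441). CEBPB fell from 91.9, 86.7 and 77.9 FPKM to 68.8, 40.8 and 52.3 FPKM (-0.68, limma adjusted P = 0.5001). The groups did not overlap in these 3 transcription factors, which were described because they were called. The gene that rose was TGFB3, a ligand of the transforming growth factor family (0.52, limma adjusted P = 0.548).

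**Figure D5:**
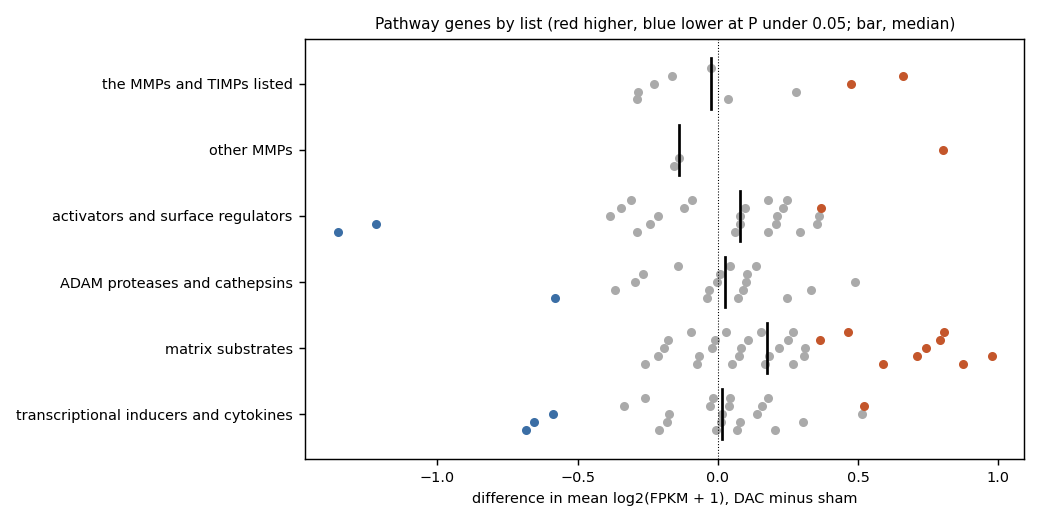
Difference in mean log2(FPKM + 1) between DAC and sham animals (horizontal axis) for each tested gene of the 6 lists, 1 point a gene, with a bar at the list's median. Red points were called higher and blue points lower at an unadjusted limma P under 0.05, and the vertical offset of points has no meaning. The matrix substrates hold 9 red points and no blue one.

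Most markers of cell types were not called. The shares called over all genes tested were 3.25% higher and 5.27% lower in DAC. Of 8 fibroblast markers, all tested, 4 rose (LUM, COL1A1, COL1A2 and COL3A1, which are also matrix genes) and 0 fell, and their summed level was 487 to 560 FPKM in the sham animals and 693 to 790 FPKM in the DAC animals. COL1A1, COL1A2 and COL3A1 made up most of that sum, so it largely repeats the collagen values. PDGFRA, TCF21, DCN and DDR2 were not called, at log2 differences of 0.24, -0.02, -0.01 and 0.36. RYR2 fell among 8 cardiomyocyte markers, VWF fell and KDR rose among 6 endothelial markers, CNN1 rose among 6 smooth muscle and pericyte markers, and CD163 fell among 6 macrophage markers, with limma adjusted P between 0.508 and 0.585. The part of cell composition in the levels of TIMP1 and MMP16 was not tested, and in ventricular tissue as a whole fewer cells of a type and less RNA per cell cannot be told apart.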

How the data were processed

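RNA libraries of ventricular tissue from 6 minipigs (NEBNext Ultra kit, paired ends, Illumina HiSeq) were summarised by the authors as FPKM, deposited as one table with a column for each animal. The submitters' processing notes name HISAT2 and the pig build susScr11, while the quantification program and its use of strand are not given in the sources used here. No counts were used, and no interval for counting error could be given. Groups and numbers came from the sample titles.

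From the deposited FPKM, log2(FPKM + 1) was compared between 3 DAC and 3 sham animals with limma 3.58.1 in R 4.3.3 (moderated test with a variance trend, two-sided). The test covered genes that reached 1 FPKM in 3 or more of the 6 animals, and P was adjusted by the Benjamini-Hochberg method. The steps were tested on simulated data. Single values and ratios were compared by exact two-sided permutation over the 20 assignments of the animals. Two-sided exact P cannot go below 0.1. The sources name no pairing or batch. The study's methods state the threshold of P but no program for this comparison. A further 519 genes without a symbol were named by gene identifier, and TIMP2, BSG and LAMA2 by a reciprocal overlap of at least 90% with RefSeq, a choice made after seeing the data.

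All members were described, with up to 3 called genes of the smallest P in each pathway list and the 5 genes most like MMP2 and TIMP1. Further genes, among them TGFB3, FURIN, RECK, ADAM17 and MMP11, were described outside that rule. Members, lists and tests were chosen with earlier results of these data known. Alternatives were a pseudocount of 0.1, testing every gene or only those reaching 5 FPKM, scaling to equal medians, quantile normalization, mitochondrially encoded genes left out, other variance models, sample weights and each animal left out. Figures were drawn with matplotlib 3.10.9.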

Additional observations from a re-analysis of the deposited data

How the results depend on the processing

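With 3 animals in each group, no adjusted P passed the threshold, and levels as low as those of MMP9 could not be tested. A minimum of 5 FPKM left 579 genes and 1 listed gene called, since MMP16 was then not tested. Leaving out 1 animal gave 600 to 1029 genes called, the lowest without sham 1. The split of 358 genes higher and 581 lower in DAC was 429 and 479 under median scaling, 418 and 469 after quantile normalization, and 500 and 407 with mitochondrially encoded genes left out. TIMP1 was called in every alternative and MMP16 in each in which it was tested, with 2 to 3 listed genes called when 1 animal was left out. The third was MMP2 without DAC 5 and TIMP4 without DAC 6.

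The log2 difference of TIMP2 (by position) turned to 0.040 after quantile normalization, 0.018 when the mitochondrial genome's genes were dropped, 0.022 with sample weights and 0.026 as a ratio of mean FPKM with no pseudocount. With 1 animal left out it ranged from -0.18 to 0.26, that of MMP14 from -0.63 to 0.14 (highest without sham 1), that of MMP19 from -0.26 to 0.020 (highest without DAC 4) and that of TIMP3 from -0.10 to 0.23. Likewise, the summed protease to inhibitor ratio ranged from -0.26 to 0.17 on the log2 scale and the ratio of MMP14 to TIMP2 (by position) from -0.50 to 0.13, both highest without sham 1. Over all 6 animals, the summed ratio was -0.55 with TIMP3 left out, which leaves TIMP1 and TIMP4 of the named inhibitors, and -0.29 with MMP2 left out. The groups did not overlap in 6 to 11 pairs, a count that leaving out an animal can keep or raise but not lower, so the range says nothing of stability. Apart from that count, the cause was not tested. No paired analysis was made, since the groups held different animals and the sources name no pairing between them.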
